A study of Xenopus laevis with 2 samples.

Results

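RNA-binding proteins (RBPs) that carry, stabilize, destabilize or silence mRNAs in neurons were examined by the levels of their own mRNAs in retinal ganglion cell (RGC) axons. The genes were chosen by symbol: fmr1, fxr1, fxr2, igf2bp1, igf2bp2, igf2bp3, elavl1, stau1, stau2 and khsrp. Of these 10 symbols, 7 matched a gene name, each under an L and an S name, which gave 14 gene names of 49349 in all. The symbols fxr2, igf2bp1 and igf2bp2 matched no gene name by this rule and were not analysed here. L and S mark the homeologs, which are the copies of a gene on the long and the short chromosomes of the allotetraploid Xenopus laevis genome.

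An mRNA that is translated in an axon has to travel there from the nucleus, and it does so bound by proteins that read elements of the transcript and dock it to motors. The same proteins often hold translation back on the way and set how long the mRNA lasts. Igf2bp proteins are known for binding β-actin mRNA, and Xenopus Igf2bp3 was first described, as Vg1RBP or Vera, for binding the localized Vg1 mRNA in the oocyte. Khsrp, known as VgRBP71 in Xenopus, binds the same Vg1 mRNA. In mammalian cells KHSRP promotes the decay of mRNAs with AU-rich elements, whereas ELAVL1 (HuR) binds such elements and stabilizes the mRNA.

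The data were 2 replicate RNA-seq libraries, both of RGC axons, and no other compartment or treatment was analysed here. Eyes of X. laevis embryos at stages 33/34 to 37/38, for which the labels name no mutation and no treatment, were cultured on a coated filter with 1 µm pores. RNA was taken from the axons after removal of the cell bodies, and a library therefore pools axons of many cells. The study's methods state that Xenopus replicates came from different batches of embryos. Levels are given as FPKM, sequenced fragments scaled to the length of the transcript and to the size of the library. The cDNA was amplified with a single-cell protocol, and whether this step favored some transcripts over others was not tested. Comparisons between genes below are therefore comparisons of FPKM, not of mRNA copies. In such bulk material, fewer axons that hold an mRNA and less of that mRNA per axon cannot be told apart.

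A value above 0 was given to 3148 gene names in replicate 1 and to 2873 in replicate 2. The depth of the libraries is unknown from FPKM, but steps among low values put the worth of 1 read in replicate 2 at 3.71 times that in replicate 1. Low values of replicate 2 are thus the coarser. Of 10 genes that every cell uses, a list made after values were seen, hprt1, tbp, sdha, pgk1 and hmbs are listed at 0 in both libraries. Whether these mRNAs were absent from the axons or were missed was not tested. A gene at 0 is described only as listed at 0. Of 14 markers of RGCs and axons, gap43 and stmn2 were over 1 FPKM in both libraries and 11 are listed at 0. Among them are pou4f1, pou4f2 and isl1, transcription factors found in RGCs, and the neurofilament genes nefl and nefm. Of the 38 markers of other eye and embryo cells that matched a gene name, 5 passed this limit (glul, rlbp1, dct, col1a1 and pcna) and 28 are listed at 0. The list with the highest summed level, that of proliferating cells, reached 149.96 FPKM in replicate 1 and 74.5 in replicate 2, nearly all of it from pcna. The lists for bipolar cells, amacrine and horizontal cells, lens, and blood and immune cells are listed at 0 throughout. The paper reports a check of axon purity by RT-PCR and by immunostaining of factors of the soma and nucleus. The part of other cells in the levels below was not tested.

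The transport RBP mRNAs spanned much of the range of the axonal transcriptome. They went from khsrp.S, at place 55 among all gene names by the average of the libraries, to names listed at 0. The limit of the study's own analysis, over 1 FPKM in both replicates, was passed by 8 of the 14 gene names, or 57.1%. Over all gene names this share was 4.39%. Of the gene names with any signal, above 0 in replicate 1 or 2, it was 65.0%. Of the 14, 10 were of this kind, and 8 of these 10 passed. Counted by symbol, khsrp, elavl1, fxr1, igf2bp3 and stau1 passed, and stau2 and fmr1 did not. Over 100 FPKM in both libraries, a limit chosen after seeing the data, were 4 of the 14, or 28.6%, against 0.942% of all gene names. These were khsrp.S, elavl1.S, fxr1.L and elavl1.L. Of names with any signal, 4 of the 10 transport RBP names were over 100 FPKM, and 465 of 3336 over all genes. These shares are descriptions, since genes chosen by name are not replicates. The median of the 14, of which 4 are listed at 0 in both libraries, was 2.82 on the log2(FPKM + 1) scale. It was 0 for all gene names and 3.17 for names with any signal. The last set leaves out every name at 0 in both libraries, so 2.82 and 3.17 are not of like sets. The 14 names together made up 0.766% of all FPKM added together in replicate 1, and 0.587% in replicate 2. The 4 highest held 98.6% and 98.7% of that, so the level of the group is the level of khsrp, elavl1 and fxr1.

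**Figure D1:**
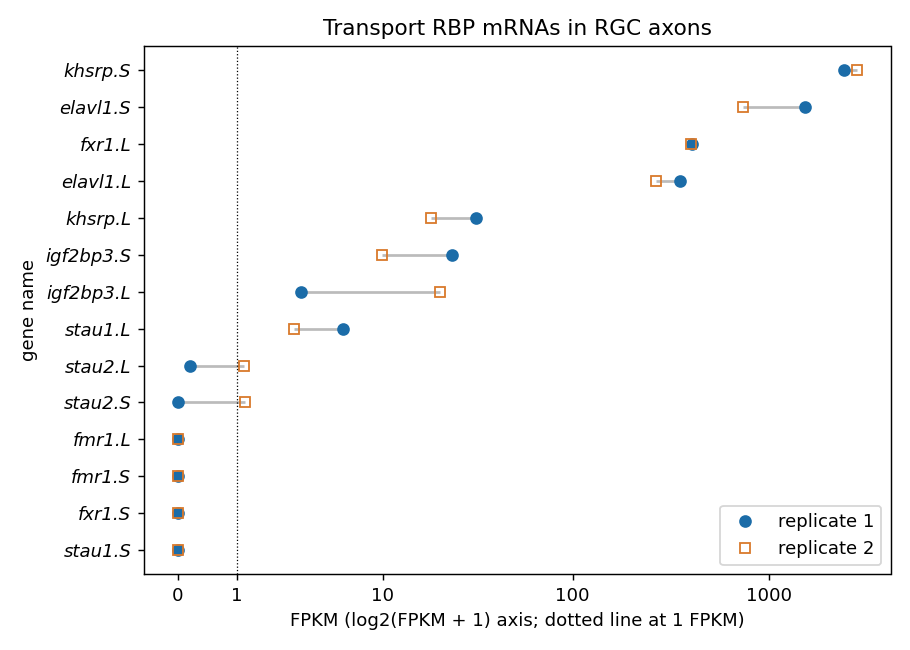
FPKM of each transport RBP gene name in replicate 1 (filled circles) and replicate 2 (open squares) on a log2(FPKM + 1) axis, with gray lines between the libraries and a dotted line at 1 FPKM. From khsrp.S, with 2408 and 2796 FPKM, to the 4 names listed at 0 in both libraries, the values of the 4 highest names do not overlap.

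khsrp.S and elavl1.S, homeologs of 2 genes whose mammalian proteins act on mRNAs with AU-rich elements, stood highest. khsrp.S had 2408 FPKM in replicate 1 and 2796 in replicate 2, the place 51 and 52 among all gene names. The libraries differed by a fold of 1.16, and the lower of them was above every value of the other 13 names. khsrp.S alone made up 50.6% of the FPKM of all 14 names in replicate 1 and 65.6% in replicate 2. In the genome build used for the files (X. laevis v9.2) it lies on Scaffold20, from position 2539593 to 2562693, with no other listed gene at that place. The other homeolog, khsrp.L on chromosome 3L from 133983709 to 134009969, had 31.9 FPKM in replicate 1 and 18.4 in replicate 2. Both homeologs were thus over 1 FPKM, but at very different levels.

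elavl1 encodes HuR, called ElrA in Xenopus, the member of the Hu family found in most cell types. elavl1.S, on chromosome 1S from 90037778 to 90055865, had 1524 FPKM in replicate 1 and 739 in replicate 2, a fold of 2.06 between the libraries. elavl1.L, on chromosome 1L from 102030291 to 102056439, had 354 and 267 FPKM. All values of the S homeolog lay above all values of the L homeolog. A numbered gene model shares the position of elavl1.S and is listed at 0 in both libraries. Thus a gene whose mammalian protein stabilizes AU-rich mRNAs and one whose mammalian protein destabilizes them held the top places, with 1878 and 1006 FPKM for the sum of the elavl1 homeologs and 2440 and 2815 FPKM for the sum of the khsrp homeologs. In replicate 1 khsrp was the higher of them by less than in replicate 2. The libraries differed in opposite directions for these genes, in that elavl1 was higher in replicate 1 and khsrp in replicate 2.

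Relatives of the Hu proteins and of Khsrp were looked up beside them. elavl2.S, a Hu gene of neurons and germ cells, had 24.3 FPKM in replicate 1 and 9.01 in replicate 2, and elavl3 and elavl4, the Hu genes that mark differentiated neurons, are listed at 0 in both libraries, which shows no level. Of the Khsrp family, which shares KH domains and the name of far-upstream element binding proteins, fubp3.S had 50.3 FPKM in replicate 1 and 137 in replicate 2. The highest fubp1 name reached 0.316 FPKM in replicate 2 and 0 in replicate 1. In rat neurons the KHSRP and FUBP3 proteins are both known to bind dendritic mRNAs.

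The fragile X family comprises translational regulators with KH domains that travel with mRNAs in granules and sit on polyribosomes. Its founder, fmr1, which encodes FMRP, is listed at 0 in both libraries under both names, fmr1.L on chromosome 8L from 35533699 to 35560800 and fmr1.S on chromosome 8S from 63018507 to 63054797. Its paralog was the member with the closest values. fxr1.L, on chromosome 5L from 104549022 to 104579517, had 405.2 FPKM in replicate 1 and 404.8 in replicate 2, a fold of 1.001 between the libraries. fxr1.S, on chromosome 5S from 89184176 to 89214674, is listed at 0 in both. Of the 4 gene names of fmr1 and fxr1, fxr1.L alone had a value above 0, and fxr2 was not analysed here. The zeros of fmr1 and fxr1.S do not show that their mRNAs were absent, since an mRNA that was missed would be listed at 0 as well.

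Proposed protein partners of FMRP and its paralogs were looked up as a list of 9 symbols. Of them, 5 had a gene name over 1 FPKM in both libraries, and 6 of the 17 gene names, or 35.3%, passed. The share was 4.39% over all gene names and 65.0% over those with any signal. The 17 include names at 0 in both libraries, which the last set leaves out, so 35.3% and 65.0% are not of like sets. The highest on the list was msn.L, for the actin-membrane linker moesin, with 2496 and 1801 FPKM in replicates 1 and 2. By the average of the libraries it was followed by usp9x.L, for a deubiquitinase, with 58.0 and 46.0 FPKM, caprin1.L, for a granule protein, with 68.6 and 19.8 FPKM, and ranbp9.S with 25.2 and 62.0 FPKM. nufip2.L had 12.6 and 4.62 FPKM, and usp9x.S had 1.52 and 13.3 FPKM. The genes for the cytoplasmic FMRP-interacting proteins, cyfip1 and cyfip2, together with nufip1 and tdrd3, are listed at 0 in both libraries.

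igf2bp3 had a modest level that depended on the homeolog and the library. igf2bp3.S had 23.7 FPKM in replicate 1 and 9.94 in replicate 2, and igf2bp3.L had 3.23 and 20.5 FPKM. The S homeolog was thus 7.34-fold higher in replicate 1, and the L homeolog 2.06-fold higher in replicate 2. The sum of both differed less, with 26.9 FPKM in replicate 1 and 30.4 in replicate 2, a fold of 1.13. igf2bp3.L, on chromosome 6L from 35118223 to 35192671, had the largest fold between libraries of the 8 names over the limit, 6.34. The signal of igf2bp3.S came from a row on Scaffold104 from 120561 to 221333, at which a numbered gene model is listed at 0. A further row under the same name lies at the position of hspb11.L on chromosome 4L and is listed at 0 in both libraries.

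The Staufen genes encode proteins that bind double-stranded RNA and are known in mammalian neurons for dendritic mRNA transport. They were the lowest of the genes with signal. stau1.L, on chromosome 9_10L from 8476476 to 8502242, had 5.94 FPKM in replicate 1 and 2.90 in replicate 2, and stau1.S, on chromosome 9_10S from 7569447 to 7587806, is listed at 0 in both. stau2.L, on Scaffold52 from 1131349 to 1270044, had 0.158 and 1.17 FPKM. On chromosome 6S from 98255804 to 98381874, stau2.S had no value above 0 in replicate 1 and 1.18 FPKM in replicate 2. Neither stau2 name passed the limit of 1 FPKM in both libraries. The 7.42-fold difference of stau2.L between the libraries is 2.0 times the step of 3.71 between them, so its level has little precision.

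By the order of their levels, khsrp.S, elavl1.S, fxr1.L and elavl1.L were separated from each other and from the rest, in that no value of one library overlapped the range of the next name. The ranges of khsrp.L, from 18.4 to 31.9 FPKM, igf2bp3.S, from 9.94 to 23.7 FPKM, and igf2bp3.L, from 3.23 to 20.5 FPKM, overlapped from each to the next. Within each library khsrp.L was higher than igf2bp3.S. igf2bp3.L was the lowest of these 3 names in replicate 1 and the highest in replicate 2, so its place is not fixed by the data. stau1.L overlapped igf2bp3.L and not igf2bp3.S, and the values of both stau2 names lay below those of stau1.L. With 2 libraries of 1 group, no test was made of any difference between genes.

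**Figure D2:**
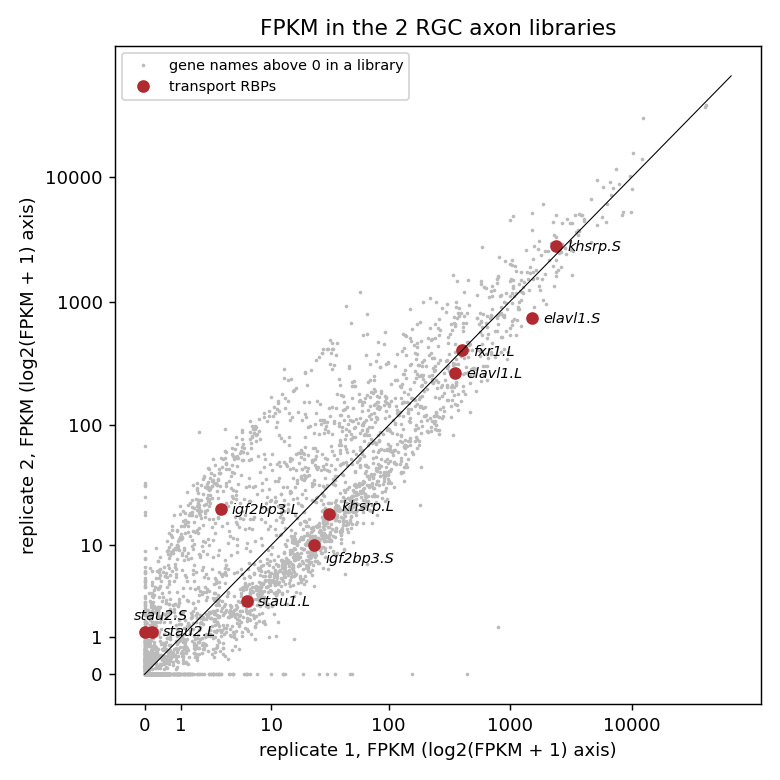
FPKM of each gene name with a value above 0 in a library (gray points) in replicate 1 (x axis) and replicate 2 (y axis), both on a log2(FPKM + 1) scale, with transport RBPs in red and the line of equal values. khsrp.S and fxr1.L lie near the line, and igf2bp3.L, at 3.23 and 20.5 FPKM, lies far above it.

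The libraries differed for the transport RBPs about as much as for other genes. The median absolute difference on the log2(FPKM + 1) scale was 0.87 over the 10 members above 0 in a library. Over all 3336 gene names above 0 in a library it was 0.84. Among names over the limit it was 0.80 for the 8 members and 0.98 for all 2168, so the direction depended on the names counted. A difference of at least 2-fold was found for 4 of the 8 names, elavl1.S, igf2bp3.S, igf2bp3.L and stau1.L, against 53.6% of the 2168. In 6 of the 8 the value was higher in replicate 1, and in khsrp.S and igf2bp3.L it was higher in replicate 2. Over all gene names past the limit, 54.2% were higher in replicate 1. The plot of the libraries against each other shows that igf2bp3.L lay on the side of replicate 2 and khsrp.L, igf2bp3.S and stau1.L on the side of replicate 1.

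The split of the signal between homeologs differed from gene to gene. In khsrp the S homeolog was 75.6-fold higher than the L homeolog in replicate 1 and 152-fold in replicate 2. In elavl1 the S homeolog was higher by 4.30-fold and 2.76-fold, and it made up 81.1% and 73.4% of the sum. In fxr1 and stau1 the L homeolog had all the signal, and the S homeolog is listed at 0. Of the 7 pairs, 4 had the same homeolog higher in both libraries, namely khsrp, elavl1, fxr1 and stau1, with S higher in the first 2 and L in the others. In igf2bp3 the higher homeolog was S in replicate 1 and L in replicate 2. The stau2 homeologs in replicate 2 were nearly equal, and fmr1 had no value.

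Over the pairs of the whole data with a value over 10 FPKM, 784 in number, 52.2% were over 10-fold apart on FPKM + 1, with the same homeolog higher in each library, so that such a split is usual here. Of the 4 transport RBP pairs at this level, khsrp and fxr1 did so. The higher homeolog was not the same in the libraries in 6.12% of the 784 pairs, and in 1 of the 4, igf2bp3. Where homeologs are near-identical in sequence, a read may be given to the wrong copy, which makes the shares of L and S uncertain. A sum of both may be affected too, since each FPKM is scaled to the length of its own transcript. This was not tested.

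**Figure D3:**
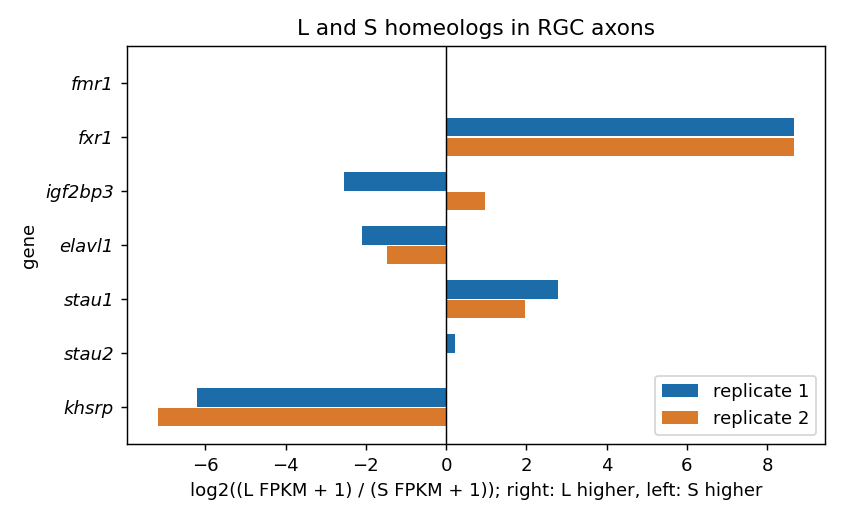
log2 ratio of L to S FPKM (with 1 added to each) for the 7 genes in replicate 1 (blue) and replicate 2 (orange), with bars to the right where L is higher. khsrp and elavl1 point to S in both libraries, fxr1 and stau1 to L, and igf2bp3 points to S in replicate 1 and to L in replicate 2.

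The genes given here as near in level to the top members, by distance over both libraries on the log2(FPKM + 1) scale, coded mostly for ribosomal proteins. The search left out names with any part that was a numbered gene model or did not end in .L or .S. Among the nearest to khsrp.S were rpl5.L, with 2158 and 2969 FPKM, and rps16.L, with 2525 and 2451 FPKM. Nearest to elavl1.S were nsa2.L, for a ribosome assembly factor, with 1139 and 707 FPKM, rpl7a.S, with 1156 and 869 FPKM, and rpl18.S, with 1160 and 896 FPKM. With 2 libraries this likeness is one of level only. The share of ribosomal protein genes among all names at such levels was not computed.

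Transport RBPs work in granules with many other proteins. A list of 38 other mRNA-binding and granule proteins was counted in the same way. Of the 36 symbols that matched a gene name, 16 had one over 1 FPKM in both libraries, 16 are listed at 0 and 4 lay between. Of their gene names, 19 of 61, or 31.1%, passed, against 4.39% of all gene names and 65.0% of those with any signal. The 61 include names at 0 in both libraries, which the last set leaves out, so 31.1% and 65.0% are not of like sets. None on the list was as high as khsrp.S or elavl1.S in both libraries. By the average of the libraries the highest was syncrip.L, for an hnRNP of neuronal granules, with 394 and 362 FPKM in replicates 1 and 2, and the next was g3bp2.S, for a stress granule protein, with 438 and 296 FPKM. Their ranges overlapped, and g3bp2.S was the higher in replicate 1. syncrip.L thus lay between fxr1.L and elavl1.L in both libraries, and the range of g3bp2.S overlapped both of these. After fubp3.S, by the same average, came g3bp2.L, with 41.1 and 96.9 FPKM, and g3bp1.S, with 52.2 and 80.4 FPKM. Next was purb, for a single-stranded nucleic acid binding protein of granules, with 58.3 and 66.0 FPKM under a name that joins purb.L and purb.S. A further name with purb.L is listed at 0 in both libraries. The symbols listed at 0 in both libraries include cpeb1, cpeb3 and cpeb4, of the cytoplasmic polyadenylation element binding proteins, pura, the neighbor of purb in function, and ago2, tnrc6a and tnrc6b of microRNA silencing. The plot of these proteins shows that most of those over the limit lay between 10 and 100 FPKM by the average of the libraries.

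**Figure D4:**
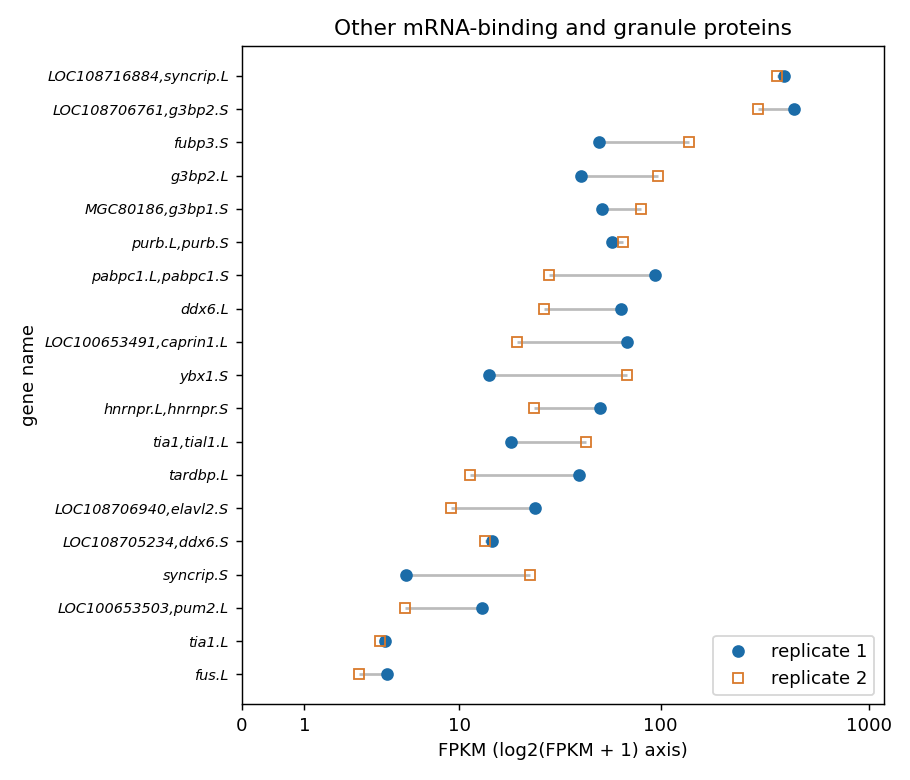
FPKM in replicate 1 (filled circles) and replicate 2 (open squares), on a log2(FPKM + 1) axis, of the 19 gene names for other mRNA-binding and granule proteins over 1 FPKM in both libraries. By the average of the libraries syncrip.L and g3bp2.S are the highest, from 296 to 438 FPKM, and fus.L is the lowest, with 3.99 and 2.64 FPKM.

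Lastly, mRNAs that are known to be localized to axons or dendrites, the possible cargoes of such proteins, were listed by 17 symbols. Of the 15 that matched a gene name, 10 had one over 1 FPKM in both libraries and 5 are listed at 0. By gene name, 13 of 26, or 50%, passed, against 4.39% of all gene names and 65.0% of those with any signal. The 26 include names at 0 in both libraries, which the last set leaves out, so 50% and 65.0% are not of like sets. By the average of the libraries tpt1.L was the highest on this list, with 3637 and 3458 FPKM in replicates 1 and 2. The next was cfl1.L, for the actin-severing protein cofilin, with 1064 and 4848 FPKM. In replicate 2 cfl1.L was the higher. stmn2.S had 262 and 719 FPKM, stmn2.L 280 and 120 FPKM, kpnb1.L 131 and 262 FPKM and stmn1.L 167 and 75.0 FPKM. For comparison, the median over all names past the limit was 27.3 FPKM in replicate 1 and 31.0 in replicate 2. The other names of the list past the limit lay on both sides of it, and rhoa.S, with 47.8 and 110 FPKM, above it in both libraries. The names that follow were picked after their values were seen, because their mRNAs are known to bind such RBPs, and lay below it. They do not stand for the list. β-actin mRNA, which Igf2bp1 binds in chick, had 2.59 and 14.4 FPKM under actb.L. gap43.L, whose mRNA binds Hu proteins and KHSRP in mammals, had 2.85 and 3.11 FPKM. The symbols listed at 0 in both libraries are map1b, a target of FMRP in mammals, camk2a, camk2b, mapt and nrn1, and no level is read from them. Levels of an RBP mRNA say nothing of the amount of its protein, and binding was not measured in these libraries.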

How the data were processed

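The authors amplified axonal cDNA by PCR with a single-cell protocol, aligned it by HISAT2 2.1.0 (default settings) to X. laevis v9.2, and deposited FPKM estimated with Cufflinks 2.1.1, 1 value per row and library (versions as in the submitters' processing notes). The gene annotation is not given in the sources used here.

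From these files, gene names were split at commas, stripped of a final .L or .S and matched to the 10 symbols, and rows of one name were summed. A pseudocount of 1 was used on log2 scales, where differences of low genes are understated. With 1 group there is no test. All members are named; of other lists, up to 6 names over the limit and the symbols at 0, and the 3 names nearest in level to each of the 2 highest members, of which 1 is not reported here. The values of elavl2.S, fubp1, fus.L, actb.L and rhoa.S lie outside this rule and were chosen after they were seen. So were those of hnrnpab and rbm8a.L in the closing section. The members and lists were chosen with earlier results of these data known; the genes that every cell uses, the Vg1 proteins and the exon junction complex were listed after values were seen. The relative depth was tested on simulated data of 3000 genes, where 20 of 20 runs came within 5% of a ratio of 3.5, and 17 of 20 of a ratio of 7. Python 3.11.15, numpy 2.4.6, pandas 2.3.3 and matplotlib 3.10.9 were used. No sequences were used.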

Additional observations from a re-analysis of the deposited data

How the results depend on the processing

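Of 50 alternative values of the counts, shares and medians, 44 stayed within 1.5 times a count or within a spread. This was the spread of the libraries for the share and the level, and the spread among members for the difference between libraries. With 2 libraries, the share in a single library could not leave its spread. Taking the highest row of a name could not change the count of names or the median level. Part of the 44 was thus fixed in advance. The count of 8 transport RBP names over 1 FPKM in both libraries was 5 over 10 FPKM and 4 over 100 FPKM (a limit chosen after seeing the data), and 8 to 10 in single libraries. The count of symbols, 5, was 3 over 10 FPKM and 5 to 6 in single libraries. The share of summed FPKM, 0.677% on average, was 0.905% without the 10 highest gene names, from 0.587% to 0.766% in single libraries. The median log2 level, 2.82, was 4.08 with a pseudocount of 10 and 2.44 to 2.71 in single libraries. Of the 4 homeolog pairs with one direction, 2 were over 10-fold apart (chosen after seeing the data). Single libraries gave 6 pairs with an unequal split, a count that cannot show agreement between libraries. The shifts with limits and pseudocount follow from their construction. For single names, 15 of 70 values moved, all with another pseudocount. Values from a single library could not move, since they always lie within the spread of the 2 libraries around their mean. Taking the highest row could not move a value either, because the only additional row, of igf2bp3.S, is listed at 0. These settings therefore say nothing of stability for single names. Low values limit what can be read of stau2 and stau1, and 2 libraries limit every comparison. No paired analysis was possible because there is 1 group.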

Other observations

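In Xenopus oocytes, Igf2bp3 and Khsrp act with further proteins on the localized Vg1 mRNA. A list of 6 such proteins was put together after the values of the members had been seen, so its count is a description only. Of the 6 symbols, 5 had a gene name over 1 FPKM in both RGC axon libraries: igf2bp3, khsrp, stau1, ptbp1 and dazap1. Of these, igf2bp3, khsrp and stau1 are transport RBPs counted above, so their passing was known before the list was made. By gene name, with those of the transport RBPs, 7 of 11, or 63.6%, passed. The share was 4.39% over all gene names and 65.0% over those with any signal. The 11 include names at 0 in both libraries, which the last set leaves out, so 63.6% and 65.0% are not of like sets. ptbp1, for the polypyrimidine tract binding protein, had 453 FPKM in replicate 1 and 271 in replicate 2 under a name for both homeologs. dazap1.L, known as Prrp in Xenopus, had 97.8 and 39.2 FPKM. hnrnpab, known as 40LoVe in Xenopus, did not pass the limit: hnrnpab.S had 0.195 FPKM in replicate 1 and is listed at 0 in replicate 2, and hnrnpab.L is listed at 0 in both.

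The exon junction complex, which marks spliced mRNAs and is needed for the localization of oskar mRNA in Drosophila, was looked up after casc3.L was seen near khsrp.S in level. casc3.L, for the Barentsz protein of this complex, had 2616 FPKM in replicate 1 and 2494 in replicate 2, place 57 by the average of both. A name that joins casc3.L and casc3.S had 2.39 and 44.3 FPKM, and a further name with casc3.L is listed at 0 in both libraries. Of the 8 gene names of the 4 symbols looked up, 2, or 25%, were over 1 FPKM in both libraries. Over all gene names the share was 4.39%. It was 65.0% over those with any signal, a set that leaves out names at 0 in both libraries. Of the core genes of the complex, magoh and eif4a3 are listed at 0 in both libraries, which shows no level, and rbm8a.L had 1.44 FPKM in replicate 1 and is listed at 0 in replicate 2.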
